A study of Mus musculus with 7 samples.

Results

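Müller glia are the radial support cells of the retina, and 10 genes of their homeostatic work were followed in retinas of mice infused with the vasoconstrictor peptide angiotensin II (Ang II) and of mice infused with saline. The genes were taken by symbol from the deposited gene count table: Glul, Slc1a3, Aqp4, Kcnj10, Sox9, Dkk3, Car14, Clu, Vim and Abca8a. Each symbol matched 1 gene ID, so the set holds 10 of the 54532 gene IDs in the table, and all 10 passed the filter on low counts. The groups were Ang II with 4 libraries and saline with 3 libraries, all of retina taken on day 28. The series text describes the mice of both groups as ApoE-/-, whereas the sample labels give their genotype as WT. Dose, strain, sex and age, and how many animals a library came from, are not given in the sources used here, so the p-values below measure the spread between these libraries, which may be technical.

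A Müller cell spans the whole depth of the retina. It takes up glutamate released by neurons and turns it into glutamine, carries away the potassium that active neurons release, moves water along with it, and buffers the carbon dioxide and acid of a tissue with a very high metabolic rate. Loss of the potassium and water channels and a rise of intermediate filament genes are textbook features of Müller cells under stress. The set covers these functions. Glul encodes glutamine synthetase and Slc1a3 the glial glutamate transporter (GLAST). Kcnj10 encodes the inward rectifier potassium channel Kir4.1, Aqp4 the water channel aquaporin 4, and Car14 a membrane-bound carbonic anhydrase. Sox9 is a transcription factor gene of glial identity, and Abca8a encodes an ATP-binding cassette transporter found in Müller cells. Dkk3 encodes a secreted member of the Dickkopf family, Clu the secreted chaperone clusterin, and Vim the intermediate filament protein vimentin. None of the 10 belongs to Müller glia alone. For example, retinal astrocytes also make Glul, Slc1a3, Aqp4 and Vim, and the pigment epithelium also makes Clu, Car14, Vim and Sox9.

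The sequence just upstream is shown for 4 members. Glul, Slc1a3 and Kcnj10 carry the glutamate and potassium functions and were low in the same libraries, and Car14 followed another order of libraries. The sequences are from RefSeq (GRCm38.p6) and run 5′ to 3′ on the strand of the gene. They end before the annotated start and outside the deposited gene model. Capitals mark the match to the SOX core ACAANG, searched on both strands, which is read here on the opposite strand.
Glul (chr1:153899679-153899928, plus strand): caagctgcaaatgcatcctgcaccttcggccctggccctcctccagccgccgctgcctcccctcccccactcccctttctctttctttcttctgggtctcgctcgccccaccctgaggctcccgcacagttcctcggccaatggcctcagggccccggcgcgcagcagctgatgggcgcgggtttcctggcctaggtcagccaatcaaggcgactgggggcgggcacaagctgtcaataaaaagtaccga
Slc1a3 (chr15:8710808-8711057, minus strand): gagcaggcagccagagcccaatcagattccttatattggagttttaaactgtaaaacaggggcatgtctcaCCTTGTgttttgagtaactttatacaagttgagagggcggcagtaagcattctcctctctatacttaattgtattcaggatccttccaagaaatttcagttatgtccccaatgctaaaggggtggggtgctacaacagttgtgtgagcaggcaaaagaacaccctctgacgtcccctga
Kcnj10 (chr1:172340960-172341209, plus strand): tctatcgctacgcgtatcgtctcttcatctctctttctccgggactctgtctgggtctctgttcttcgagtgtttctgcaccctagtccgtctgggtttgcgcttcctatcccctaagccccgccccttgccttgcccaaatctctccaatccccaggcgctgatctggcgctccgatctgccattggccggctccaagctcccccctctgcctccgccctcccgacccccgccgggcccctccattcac
Car14 (chr3:95904692-95904935, minus strand): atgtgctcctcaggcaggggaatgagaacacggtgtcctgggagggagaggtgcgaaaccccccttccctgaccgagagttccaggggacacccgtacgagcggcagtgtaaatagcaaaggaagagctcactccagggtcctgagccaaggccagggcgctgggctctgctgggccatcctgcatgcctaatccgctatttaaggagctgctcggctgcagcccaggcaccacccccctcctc
RefSeq windows of 300 bases (250 before and 50 after the start) were found for 6 of the 10 members, and Abca8a and Vim were the other two. The SOX core occurred in 3 of these 6 windows and in 41.2% of all 32851 windows. The Slc1a3 window is set on a RefSeq start (8710807) upstream of the deposited gene end (8710764), and it is the 1 window of the 6 whose sequence after the start could not be matched to a GENCODE M21 transcript of its gene. The match lay 174 bases before that RefSeq start in Slc1a3 and 7 bases before the start in Vim, both on the opposite strand, and at the start itself in Kcnj10. The letters of the STAT motif TTCCNGGAA, which reads the same on both strands, were in 0 of the 6 windows and in 1.15% of all windows. GC content was 64.3% for Glul, 63.7% for Kcnj10, 61% for Car14 and 59.3% for Vim, against 45.3% for Slc1a3 and 44.3% for Abca8a, with a median of 52.7% over all windows. Glul and Kcnj10 had 17 and 21 CpG dinucleotides, and Slc1a3 and Abca8a had 3 and 4.

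The Ang II libraries held 15374638 to 17563493 counts and the saline libraries 14655431 to 16679829 counts. The members took 0.446% to 0.521% of all counts with Ang II and 0.435% to 0.522% with saline. Saline replicate 2 stood apart on the first principal component, which held 33.3% of the variance, and had the fewest detected genes (21260). Ang II replicate 3 stood apart in Gfap, the filament gene of reactive glia, with 79.8 CPM (TMM-scaled for library size) against 6.84 to 9.60 CPM in the other 6 libraries. The pigment epithelium lies behind the photoreceptors, and its markers, which lay higher with Ang II, are given beside the results they move with. Lens markers summed to 2236 CPM in Ang II replicate 2 and to between 1.45 and 458.5 CPM elsewhere, and skeletal muscle markers to 198.5 CPM in Ang II replicate 3 and to at most 15.3 CPM elsewhere. Microglia markers summed to 45.4 to 54.6 CPM in Ang II and 35.4 to 44.5 CPM in saline. Of these sums Csf1r alone gave 22.3 to 26.3 CPM in Ang II and 13.4 to 20.1 CPM in saline, and the groups overlapped in every other microglia marker listed.

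Levels were compared between genes as TPM, which divides each count by the deposited gene length. Glul stood first with a mean of 2713 TPM over the 7 libraries (2176 to 3078), at percentile 99.9 of all genes tested. Dkk3 (1042 TPM, 915.1 to 1164) and Clu (759.2 TPM, 598.3 to 953.5) came next, and their ranges overlapped, with Dkk3 above Clu in 6 of 7 libraries. Clu was at 5.45 times the level of the next gene. The middle of the order was close: Abca8a (139.2 TPM), Vim (111.9), Car14 (105.9), Aqp4 (101.6), Slc1a3 (79.5) and Kcnj10 (72.4) each overlapped with the next in range. Within it, Aqp4 was above Slc1a3 in all 7 libraries, while Car14 was above Aqp4 in 4 of 7. Sox9 was last with 23.1 TPM (21.6 to 25.9), near the middle of all genes tested. Its range was also the narrowest, with the highest library at 1.16 times the lowest in CPM, against 1.61 times for Car14 and for Clu. The length of Aqp4 in the deposited table differs from that in GENCODE M21 (5082 and 6233 exonic bases), so its TPM depends on the annotation used.

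**Figure D1:**
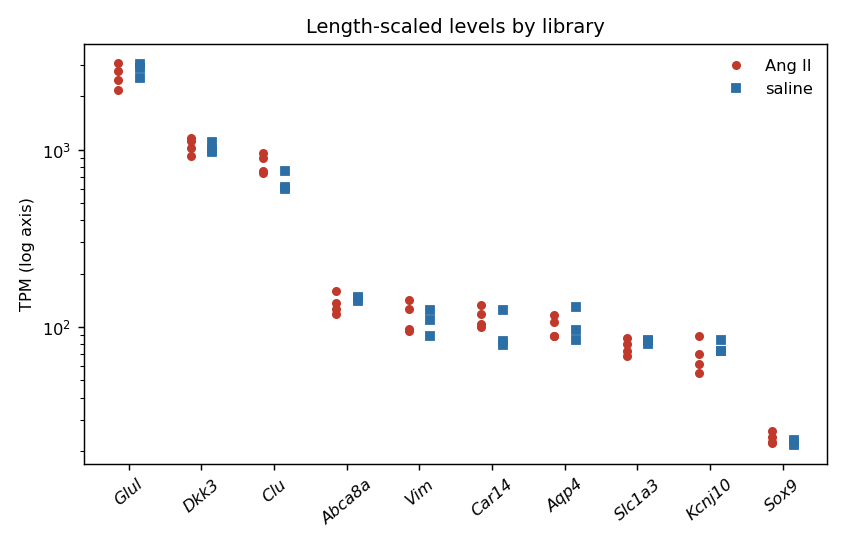
Length-scaled level (TPM, log axis) of each member in 4 Ang II libraries (circles, left) and 3 saline libraries (squares, right), with genes ordered by their mean. Glul, Dkk3 and Clu lie far above the other 7 genes, Sox9 lies lowest at 21.6 to 25.9 TPM, and the groups overlap in every gene.

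Over the comparison of Ang II with saline, 0 of the 10 members passed edgeR's quasi-likelihood test at an adjusted p under 0.05, the same as the 0% of all 17078 genes tested. DESeq2 and limma-voom also called 0 members, and their smallest adjusted p among members were 0.661 and 0.0834, each for Clu. With edgeR 1 member, Clu, had an unadjusted p under 0.05, as had 4.62% of all genes. The groups overlapped in all 10 members, whereas they did not overlap in 5.91% of all genes tested (3.18% with Ang II higher and 2.73% with Ang II lower). The members lay on both sides of 0, with 5 above and 5 below and a median log2 fold change of -0.03, against a median of -0.01 over all genes tested, of which 48.9% lay above 0. Below 0 were Glul, Slc1a3, Kcnj10, Aqp4 and Abca8a. Above 0 were Clu, Car14, Vim, Sox9 and Dkk3. In bulk tissue, fewer cells of a type and less RNA per cell cannot be told apart.

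**Figure D2:**
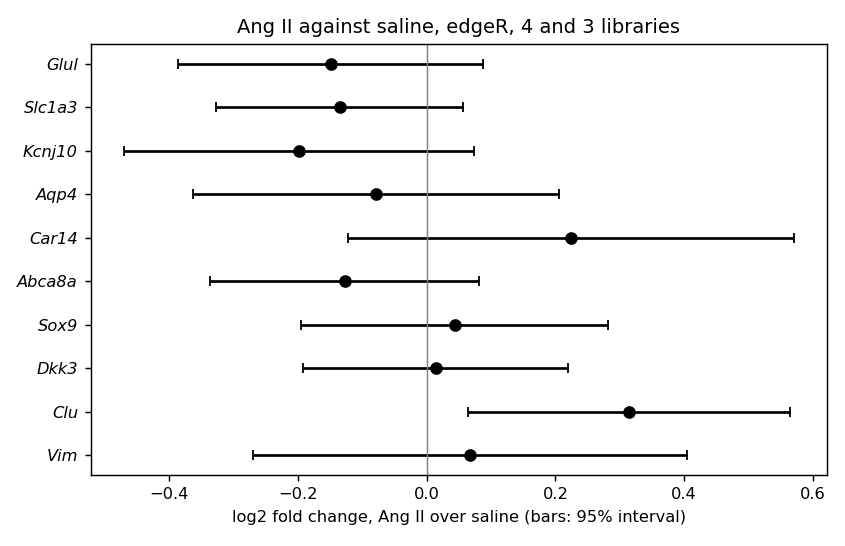
Log2 fold change of each member, Ang II (n = 4) over saline (n = 3), with the 95% interval from edgeR. The 10 estimates lie between -0.20 (Kcnj10) and 0.31 (Clu), and the interval includes 0 in every gene other than Clu, whose adjusted p was 0.982.

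Glutamate handling was described by Glul and Slc1a3. Glul (ENSMUSG00000026473, mm10 chromosome 1, 153899944 to 153909723, plus strand), which makes glutamine from glutamate and ammonia, was at 2149, 2376, 1885 and 2570 CPM in Ang II replicates 1 to 4, against 2616, 2183 and 2670 CPM in the saline libraries. Saline replicate 2 lay among the Ang II libraries and Ang II replicates 2 and 4 within the saline range, so the groups overlapped. The Ang II libraries averaged 2245 ± 296 CPM (SD, n = 4) and the saline libraries 2489 ± 267 CPM (SD, n = 3). The log2 fold change was -0.15 ± 0.11 (SE, edgeR adjusted p = 0.982), and it was -0.07 without Ang II replicate 3 and -0.24 without saline replicate 2. The 95% interval of the fold ran from 0.765 to 1.06. Of the 3266 stretches of 50 bases in Glul, 412 (12.6%) also occur in other genes. Glns-ps1 shares 309 stretches and had 7 to 30 counts per library. Slc1a3 (ENSMUSG00000005360, chromosome 15, 8634124 to 8710764, minus strand), the transporter that clears glutamate from around the synapses, was at 163.2, 176.8, 152.4 and 186.7 CPM with Ang II, against 194.3, 186.0 and 179.0 CPM in the saline libraries. Ang II replicate 4 alone reached into the saline range. Its log2 fold change was -0.13 ± 0.09 (169.8 ± 15.1 CPM in Ang II and 186.4 ± 7.65 CPM in saline, edgeR adjusted p = 0.982), with a fold interval of 0.797 to 1.04.

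Potassium and water transport was described by Kcnj10 and Aqp4, whose products sit together in the endfeet of Müller cells. Kcnj10 (ENSMUSG00000044708, chromosome 1, 172341210 to 172374085, plus strand) was at 77.9, 98.3, 86.6 and 120.4 CPM with Ang II, against 107.2, 118.1 and 104.5 CPM in the saline libraries. Of the Ang II libraries 3 lay below every saline library, and Ang II replicate 4 was the highest of all 7. The log2 fold change was the lowest of the set at -0.20 ± 0.13 (95.8 ± 18.4 CPM in Ang II and 109.9 ± 7.24 CPM in saline, edgeR adjusted p = 0.982), with a fold interval of 0.722 to 1.05. It was -0.33 without Ang II replicate 4 and -0.11 without Ang II replicate 1. Aqp4 (ENSMUSG00000024411, chromosome 18, 15389394 to 15403684, minus strand) was at 118.1, 140.0, 117.9 and 148.9 CPM with Ang II, against 132.6, 170.1 and 113.1 CPM in the saline libraries. The highest and the lowest of its 7 values were both in saline libraries. Its log2 fold change of -0.08 ± 0.13 (131.2 ± 15.7 CPM in Ang II and 138.6 ± 28.9 CPM in saline, edgeR adjusted p = 0.983) turned to 0.09 without saline replicate 2.

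Car14, whose enzyme converts carbon dioxide and bicarbonate at the cell surface (ENSMUSG00000038526, chromosome 3, 95897768 to 95904691, minus strand), was at 78.8, 87.3, 69.3 and 63.7 CPM with Ang II, against 54.6, 54.3 and 83.1 CPM in the saline libraries. All 4 Ang II libraries lay above saline replicates 1 and 2, and saline replicate 3 lay above 3 of the 4 Ang II libraries. The Ang II libraries averaged 74.8 ± 10.4 CPM (SD, n = 4) and the saline libraries 64.0 ± 16.5 CPM (SD, n = 3). The log2 fold change was 0.22 ± 0.16 (edgeR adjusted p = 0.982). Without saline replicate 3 it was 0.46. Exons of Aph1a, on the other strand, cover 445 of the 2543 exonic bases of Car14 (17.5%). The library protocol does not mark the strand, so reads from that stretch cannot be assigned to either gene. Aph1a had 355 to 625 counts per library against 775 to 1429 for Car14.

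Of the genes of glial identity and membrane transport, Sox9 (ENSMUSG00000000567, chromosome 11, 112782224 to 112787760, plus strand) was at 24.4, 27.6, 23.8 and 25.0 CPM with Ang II, against 24.3, 23.9 and 25.1 CPM in the saline libraries. The groups were interleaved, and the highest library was 1.16 times the lowest. The log2 fold change was 0.04 ± 0.11 (25.2 ± 1.66 CPM in Ang II and 24.4 ± 0.623 CPM in saline, edgeR adjusted p = 0.986), with a fold interval of 0.874 to 1.22. Abca8a (ENSMUSG00000041828, chromosome 11, 110025634 to 110095978, minus strand) was at 207.2, 222.1, 193.6 and 252.5 CPM with Ang II, against 249.6, 237.1 and 230.5 CPM in the saline libraries. As with Kcnj10, 3 Ang II libraries lay below every saline library and Ang II replicate 4 was the highest of all. Its log2 fold change was -0.13 ± 0.10 (218.8 ± 25.3 CPM in Ang II and 239.1 ± 9.66 CPM in saline, edgeR adjusted p = 0.982). Its near relative Abca8b, which shares 105 of the 6394 stretches of 50 bases in Abca8a, had 440 to 643 counts per library, so reads between them are uncertain for 1.64% of the sequence. Abca8b was at 0.22 ± 0.10 on the log2 scale (edgeR adjusted p = 0.982), with groups that did not overlap.

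Clu, the secreted chaperone and the member with the largest log2 fold change (ENSMUSG00000022037, chromosome 14, 65968483 to 65981547, plus strand), was at 667.5, 794.4, 854.1 and 650.7 CPM with Ang II, against 572.2, 529.9 and 687.4 CPM in the saline libraries. All 4 Ang II libraries lay above saline replicates 1 and 2, and saline replicate 3 lay above Ang II replicates 1 and 4. The Ang II libraries averaged 741.7 ± 98.7 CPM (SD, n = 4) and the saline libraries 596.5 ± 81.5 CPM (SD, n = 3). The log2 fold change was 0.31 ± 0.12, with a fold of 1.24 and an interval of 1.05 to 1.48. Its edgeR adjusted p was 0.982 and its unadjusted p 0.0173, which ranked 266 among 17078 genes. It was 0.16 on the log2 scale when both Ang II replicate 3 and saline replicate 2 were left out. Dkk3, the other secreted protein (ENSMUSG00000030772, chromosome 7, 112116017 to 112159057, minus strand), was at 900.9, 975.0, 801.1 and 982.6 CPM with Ang II, against 907.1, 835.3 and 976.3 CPM in the saline libraries. Its groups were interleaved, with a log2 fold change of 0.01 ± 0.10 (914.9 ± 84.4 CPM in Ang II and 906.2 ± 70.5 CPM in saline, edgeR adjusted p = 0.996) and a fold interval of 0.875 to 1.16. The sign of this value turned when Ang II replicate 2, Ang II replicate 4 or saline replicate 2 was left out, with -0.043 as the lowest.

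Vim, the intermediate filament gene that Müller cells express at rest and raise in gliosis (ENSMUSG00000026728, chromosome 2, 13573927 to 13582826, plus strand), was at 118.2, 173.7, 155.5 and 116.6 CPM with Ang II, against 114.6, 133.0 and 156.0 CPM in the saline libraries. Each group held both high and low libraries. The log2 fold change was 0.07 ± 0.15 (141.0 ± 28.3 CPM in Ang II and 134.5 ± 20.7 CPM in saline, edgeR adjusted p = 0.986), with a fold interval of 0.83 to 1.32. It turned to -0.05 without Ang II replicate 2 and to -0.03 without saline replicate 1, and was 0.19 without saline replicate 3. In Ang II replicate 3, where Gfap was at 79.8 CPM, Vim was the third highest of 7, below Ang II replicate 2 and saline replicate 3, in which Gfap was at 6.84 and 9.35 CPM.

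**Figure D3:**
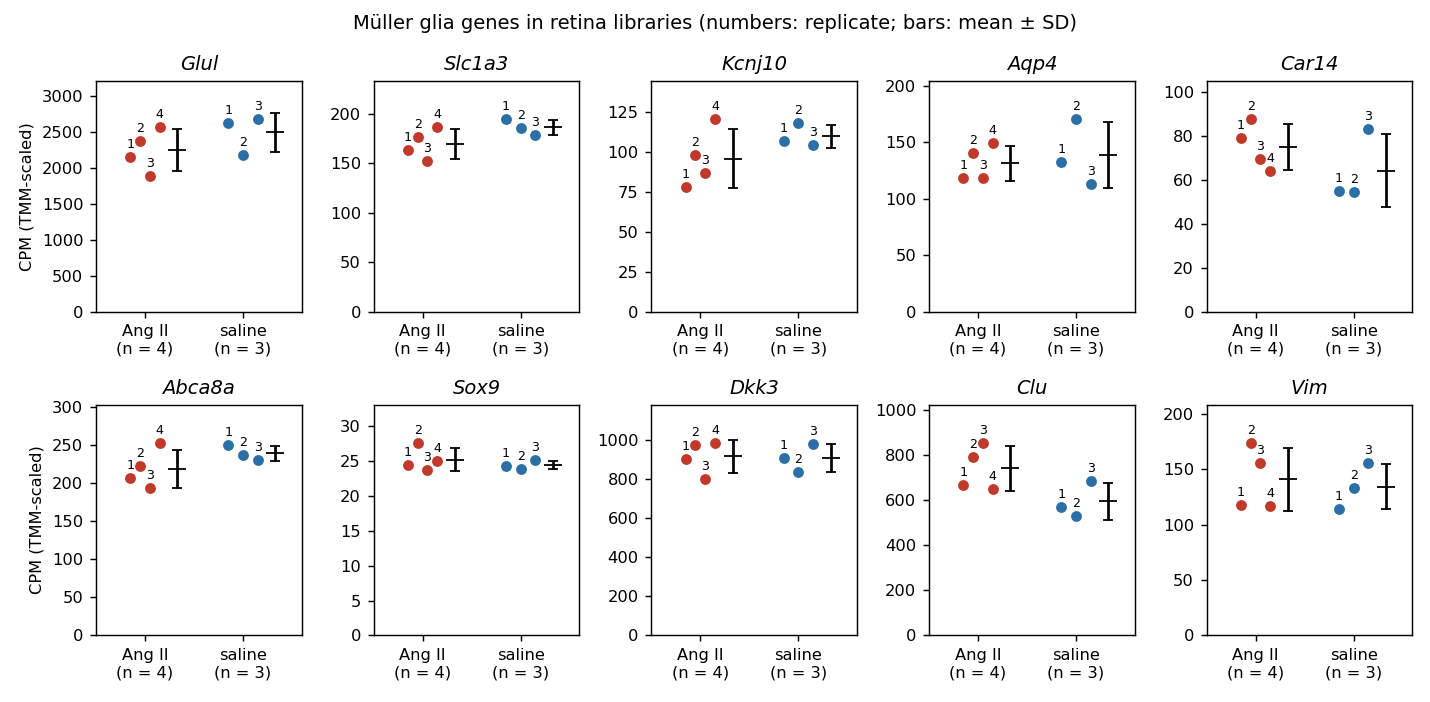
CPM of each member by library, Ang II (n = 4) left and saline (n = 3) right, with the replicate number beside each point and bars for the mean ± SD. The groups overlap in all 10 panels, and in Kcnj10 and Abca8a Ang II replicate 4 lies above all other libraries while the other 3 Ang II libraries lie below all saline ones.

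The members followed more than one order of libraries, described here from the values themselves and without a test. In Glul, Slc1a3, Kcnj10 and Abca8a, Ang II replicates 1 and 3 were the lowest pair of the 7 libraries. Relative to each gene's own mean on the log2 CPM scale, Ang II replicate 3 lay at -0.31 in Glul, -0.21 in Slc1a3, -0.22 in Kcnj10 and -0.23 in Abca8a, and Ang II replicate 1 between -0.37 (Kcnj10) and -0.11 (Slc1a3). Ang II replicate 4 lay above the mean in all 4, between 0.08 and 0.26, so the spread inside the Ang II group was as wide as the range of all 7 libraries in Kcnj10 and Abca8a. In Car14 and Clu, saline replicates 1 and 2 were the lowest pair, at -0.34 and -0.34 in Car14 and at -0.23 and -0.34 in Clu. Ang II replicate 3, lowest of all libraries in 5 of the 10 members, was highest in Clu.

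The summed level of the pigment epithelium markers was likewise lowest in saline replicates 1 and 2, though some single markers were lowest in other libraries. Of 14 markers 13 lay higher in Ang II, with a median log2 fold change of 1.59, though 0 were called by edgeR, and Rpe65, the retinoid isomerase gene, was detected in every library. Their summed level was 1435, 1482, 2028 and 1150 CPM with Ang II (replicates 1 to 4), against 204.2, 240.5 and 1035 CPM with saline (replicates 1 to 3). Saline replicate 3, the saline library with the high sum, was also the highest saline library in Car14, Clu and Vim, and likewise in Glul, Dkk3 and Sox9. Vim was highest in Ang II replicate 2, then in saline replicate 3 and Ang II replicate 3. The lens marker sum had the same order at its top, with 2236, 458.5 and 377.3 CPM. Saline replicate 1, the lowest library in Vim, had a lens sum of 231.7 CPM. The part of the pigment epithelium or of the lens in the levels of the members was not tested. With a score of the 14 pigment epithelium markers as a covariate in the fit, which itself differs between the groups, 8 of the 10 members turned sign. Of these, Dkk3, Sox9 and Vim were at 0.01, 0.04 and 0.07 without the score. The smallest edgeR adjusted p of a member with the score was 0.9998, and how many of all genes turned sign was not counted. In that fit Clu was at -0.03, Car14 at -0.33 and Vim at -0.33, while Aqp4 was at 0.33, Kcnj10 at 0.03 and Abca8a at 0.01. Sox9 and Dkk3 were at -0.03 and -0.08, and Glul and Slc1a3 kept their sign at -0.21 and -0.03. Markers of rods, the most numerous neurons of the retina, lay on the other side, with sums of 53610 to 65850 CPM in Ang II and 66950 to 71570 CPM in saline, and all 10 lay below 0.

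**Figure D4:**
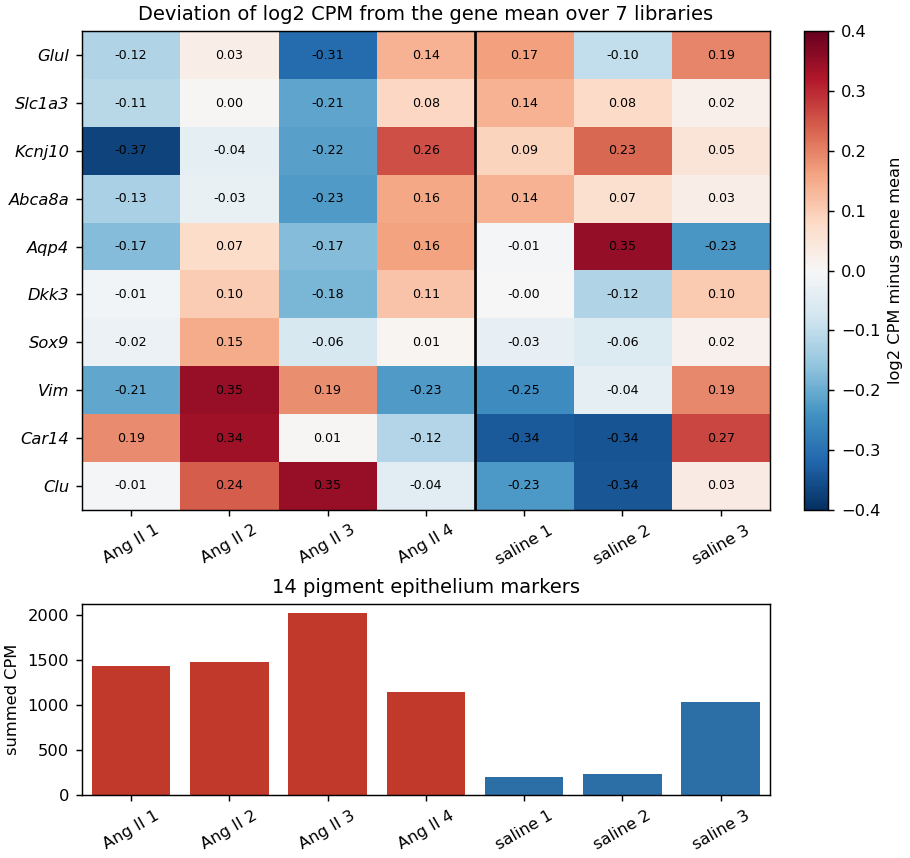
Top, log2 CPM of each member minus its mean over the 7 libraries, with the Ang II libraries left of the line and saline libraries right of it. Bottom, summed CPM of 14 pigment epithelium markers in the same libraries. Ang II replicate 3 is low in Glul, Slc1a3, Kcnj10 and Abca8a and high in Clu, and saline replicates 1 and 2 are low both in Car14 and Clu and in the marker sum.

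**Figure D5:**
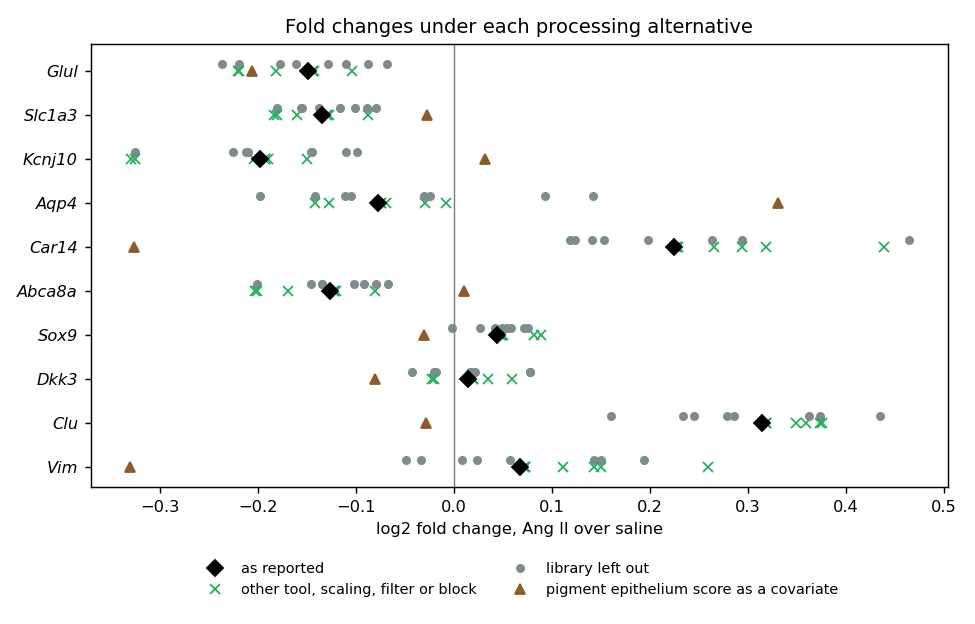
Log2 fold change of each member, Ang II over saline, as reported (diamonds) and under each processing alternative: a library left out (circles), another tool, scaling, filter or block (crosses), and the pigment epithelium score as a covariate (triangles). Glul and Slc1a3 stay below 0 in all of them, and with the covariate the other 8 genes lie on the other side of 0, among them Aqp4 at 0.33 and Vim and Car14 at -0.33.

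Astrocytes could share in the levels of Glul, Slc1a3, Aqp4 and Vim, among other members. Of the 6 astrocyte markers, 5 were tested, 3 lay above 0 and 2 below, and 0 were called by edgeR. Leaving out Gfap, they summed to 28.1 to 37.7 CPM in Ang II and 30.9 to 34.5 CPM in saline, so the ranges overlapped, with the highest value in Ang II replicate 3. Within the sum, S100b was at 5.12 to 7.43 CPM in Ang II and 8.31 to 14.5 CPM in saline. Its log2 fold change was -0.673 ± 0.215 (edgeR adjusted p = 0.982). Its groups did not overlap, as in 5.91% of all genes tested, and they overlapped in every other astrocyte marker listed. The part of astrocytes in the members' values was not tested. Endothelial markers summed to 129.5 to 160.4 CPM in Ang II and 147.8 to 162.4 CPM in saline.

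Further genes of the same functions were read from lists, in which edgeR called 0 members in either direction. Of 13 genes of glutamate and amino acid handling, 12 were tested, with 5 above 0 and 7 below and a median log2 fold change of -0.02. Got1, a transaminase gene that links glutamate to aspartate, was at 333.8 ± 23.6 CPM in Ang II and 384.0 ± 34.3 CPM in saline, for a log2 fold change of -0.20 ± 0.09. The GABA transporter gene Slc6a11 was at -0.09 ± 0.09 on the log2 scale, and Slc6a13, another member of that family, at 1.41 ± 0.64, with 13.0 to 24.9 CPM in Ang II and 2.66 to 13.4 CPM in saline. The edgeR adjusted p of Slc6a13 was 0.982. Its highest saline library was replicate 3, the one with the high pigment epithelium sum and the nearest to the Ang II libraries. Without that replicate the log2 fold change was 2.52 with an edgeR adjusted p of 0.00025. Leaving out the nearest saline library widens the gap by construction. The cystine transporter gene Slc7a11 was at 0.27 ± 0.26.

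Of 17 potassium, water and acid-base partners, 16 were tested, 7 above 0 and 9 below, with a median of -0.01. Gja1, which encodes the gap junction protein connexin 43, was at 10.04, 19.3, 18.7 and 7.97 CPM with Ang II, against 5.20, 2.52 and 7.09 CPM in the saline libraries, a log2 fold change of 1.49 ± 0.44. Its groups did not overlap, and its adjusted p was 0.982 with edgeR, 0.382 with DESeq2 and 0.208 with limma-voom. Only edgeR without the filter on low counts called it (adjusted p = 0.000534). Trpv4, a calcium-permeable channel gene, was at 0.78 ± 0.28 (edgeR adjusted p = 0.982) and was called by limma-voom (adjusted p = 0.0374). The inward rectifier gene Kcnj2 and the carbonic anhydrase gene Car2 were at -0.37 ± 0.18 and -0.15 ± 0.09. Of 15 glial identity regulators, 6 lay above 0 and 9 below, with a median of -0.08. Rax, a homeobox gene of retinal progenitors that Müller glia keep, was at 105.8, 98.0, 88.7 and 93.6 CPM with Ang II, against 119.5, 113.9 and 116.2 CPM in the saline libraries. Every Ang II library was below every saline library, with a log2 fold change of -0.27 ± 0.08 and an edgeR adjusted p of 0.982. The sum of the rod markers was likewise highest in saline replicate 1 and lowest in Ang II replicate 3. The part of rods in the level of Rax was not tested. Sox8, a relative of Sox9, was at -0.26 ± 0.14, Nfib, a nuclear factor gene of late glial fate, at 0.31 ± 0.13, and the RNA-binding protein gene Zfp36l1 at 0.23 ± 0.19.

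Other Müller glia markers lay on both sides, with 7 of 13 above 0 and a median of 0.07. Rlbp1, which encodes the retinoid carrier CRALBP of Müller glia and pigment epithelium, was at 446.4 ± 34.2 CPM in Ang II and 425.5 ± 58.9 CPM in saline (log2 fold change 0.07 ± 0.10). Rdh10, a retinol dehydrogenase gene of the same cell types, was at 110.1 to 136.7 CPM in Ang II and 55.9 to 101.3 CPM in saline, for a log2 fold change of 0.78 ± 0.19 with an edgeR adjusted p of 0.875. DESeq2 (adjusted p = 0.00234) and limma-voom (adjusted p = 0.0301) called it, as did edgeR without the filter on low counts (adjusted p = 2.73e-09) and without saline replicate 3 (adjusted p = 5.74e-05). The receptor gene Gpr37 was at -0.30 ± 0.14 and the membrane protein gene Mlc1 at -0.08 ± 0.09. Apoe, the lipid carrier gene that the series text gives as deleted, was at 0.38 ± 0.22. It had 15.5 to 25.7 CPM in Ang II and 10.5 to 18.8 CPM in saline, and whether these counts come from an intact gene was not tested.

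Among 25 relatives of the members in their gene families, 22 were tested, 14 above 0 and 8 below, with a median of 0.03. Kcnj13, the inward rectifier gene of the pigment epithelium, was at 3.48 to 5.99 CPM in Ang II and 0.351 to 2.02 CPM in saline, for a log2 fold change of 2.14 ± 0.46 (edgeR adjusted p = 0.540), while Kcnj10 was at -0.20 ± 0.13. Kcnj13 was called by DESeq2 (adjusted p = 0.00174), by limma-voom (adjusted p = 0.00239), and by edgeR without the filter on low counts (adjusted p = 1.14e-06) or without saline replicate 3 (log2 fold change 3.17, adjusted p = 0.000683). The other rectifier relative named here, Kcnj14, was at -0.37 ± 0.14 (edgeR adjusted p = 0.982). It was at -0.54 without saline replicate 3 (edgeR adjusted p = 0.0185). The neuronal glutamate transporter gene Slc1a1 was at 50.5 to 57.2 CPM in Ang II and 33.8 to 47.3 CPM in saline, for a log2 fold change of 0.48 ± 0.12 (edgeR adjusted p = 0.592), while Slc1a3 was at -0.13 ± 0.09. Slc1a1 was called by limma-voom (adjusted p = 0.00426), and by edgeR without the filter on low counts (adjusted p = 0.0154) or without saline replicate 3 (adjusted p = 0.00783). The water channel gene Aqp1 was at -0.43 ± 0.12 (edgeR adjusted p = 0.875, and 0.0117 without the filter on low counts), and Aqp4 at -0.08 ± 0.13. The difference between a member and its relative was not tested.

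Reactive gliosis genes, which glia raise after injury, lay mostly above 0. Of 15 listed, 13 were tested, 12 lay above 0 and 1, Lif, a cytokine gene, at -0.15 ± 0.52, and the median was 0.56, with 0 called by edgeR. Their summed level was 188.1, 207.0, 496.7 and 162.0 CPM in Ang II, and 163.0, 183.9 and 185.7 CPM in saline, so the high sum came from Ang II replicate 3. In that library the homeostatic genes Glul, Slc1a3, Abca8a, Dkk3 and Sox9 had their lowest value of the 7. Clu had its highest there and Vim and Car14 lay in between, while Kcnj10 and Aqp4 were lowest in Ang II replicate 1 and saline replicate 3. Ang II replicate 3 also had the highest skeletal muscle sum (198.5 CPM) and the lowest rod sum (53610 CPM). Gfap had a log2 fold change of 1.45 ± 1.15, and of -0.29 without that library. The cytokine receptor gene Osmr was at 15.99, 17.3, 29.7 and 16.2 CPM with Ang II, against 7.43, 11.2 and 13.8 CPM in the saline libraries (log2 fold change 0.87 ± 0.27). Osmr was called by limma-voom (adjusted p = 0.0434) and by edgeR without the filter on low counts (adjusted p = 0.000191). The adhesion receptor gene Cd44 was at 0.56 ± 0.23.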

How the data were processed

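Retina RNA was sequenced as poly-A selected libraries whose protocol, per the labels, does not mark the strand. The deposited values are raw counts, in whole numbers, with no normalization by the authors. The submitters' processing notes name CASAVA, the aligner HISAT2 2.0.5, the counter featureCounts 1.5.0-p3 and the build mm10. The annotation release and the rules for shared reads are not given in the sources used here. The deposited table also holds gene coordinates and a gene length in bases, used for TPM. Columns were matched to samples by their descriptions, with 0 columns unmatched.

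Genes were kept by filterByExpr and scaled by TMM, and Ang II was tested against saline with the quasi-likelihood test of edgeR 4.0.16 (R 4.3.3, robust, two-sided, group as the sole term, 7 libraries) with Benjamini-Hochberg adjustment over 17078 genes and a threshold of 0.05. SE is the size of the log2 fold change divided by the root of F, and 95% intervals use the test's degrees of freedom. Log2 CPM used a prior count of 2. Alternatives were DESeq2 1.42.0, limma 3.58.1 (voom with quality weights), other scalings, no low-count filter, each library left out, the replicate number as a block, and a pigment epithelium score as a covariate. Leaving out Ang II replicate 3 and saline replicate 2 together was added after the values were seen.

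The members and all lists were chosen with earlier results of these data known. Genes named beside the members are the 2 of smallest p above 0 and the 2 below 0 in each pathway list (fewer where a list held fewer), with Gfap, Rlbp1, Rdh10, Rpe65 and Apoe. Abca8b, Aph1a and Glns-ps1 were added for their shared sequence after values were seen. Of the marker lists the summed levels are reported, and genes the rule takes from them are not named. Csf1r and S100b are the exceptions, and were added after values were seen. Sequence sharing was searched in GENCODE M21 transcripts, which gave 9 of the 10 members the deposited span, Aqp4 being the exception. On data simulated for Ang II against saline over 16767 genes, edgeR called 76.8% of genes changed by a log2 fold of 1 and 95% of those changed by 2. Smaller changes, among them changes of the size of every member value, were not simulated, and 18 of 189 calls were false. In the measured data Kcnj13, at a log2 fold change of 2.14, had an edgeR adjusted p of 0.540. Rpe65, at 1.73, had an edgeR adjusted p of 0.982, and it was called under 1 of the 16 alternatives. The simulated shares therefore do not tell how many real changes of these sizes would be called here.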

Additional observations from a re-analysis of the deposited data

Results flagged for a closer look

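No member had an Ang II library far from the other 3 by Dixon's criterion (0 of 10 examined). Among the other 26 genes named, 3 did, where chance flags about 1 in 20 groups. In Ang II replicate 4, Slc6a11 was at 321.3 CPM, where the other 3 had 261.0 to 268.0 CPM. That library was also the highest of the 4 in Glul, Slc1a3, Kcnj10, Aqp4, Abca8a and Dkk3, and in Rlbp1. Its pigment epithelium sum of 1150 CPM was the lowest of the 4. Gfap was at 79.8 CPM in Ang II replicate 3, where the other 3 Ang II libraries had 6.84 to 8.05 CPM, and Osmr was at 29.7 CPM in the same library, where the others had 15.99 to 17.3 CPM.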

How the results depend on the processing

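No member was called by edgeR, DESeq2 or limma-voom, nor under any of the 16 alternatives. The smallest adjusted p was 0.0834, for Clu with limma-voom, and the count at an unadjusted p under 0.05 was 1 with edgeR as reported. Of 160 member values, 142 kept their direction and their side of the threshold and 18 turned sign. Over all genes, edgeR called 0, DESeq2 35, limma-voom 114 and edgeR without the low-count filter 98, and leaving out a library gave 0 to 117, where the 117 came without saline replicate 3. In Slc6a13, Rdh10, Kcnj13, Kcnj14, Slc1a1 and Rpe65 that library held the saline value nearest the Ang II libraries. Leaving it out therefore widens their gap by construction. Without a library the ranges were -0.198 to 0.142 for Aqp4, -0.002 to 0.076 for Sox9, -0.043 to 0.078 for Dkk3, -0.049 to 0.194 for Vim, -0.478 to 0.171 for Lif, -0.291 to 1.761 for Gfap and -0.021 to 0.187 for Rlbp1. With both Ang II replicate 3 and saline replicate 2 left out, which was chosen after seeing the data, Aqp4 was at 0.142 and Gfap at -0.282.

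With the marker score of the pigment epithelium in the fit, the values that turned sign were 0.331 for Aqp4, 0.032 for Kcnj10, -0.031 for Sox9, -0.081 for Dkk3, -0.327 for Car14, -0.029 for Clu, -0.331 for Vim, 0.010 for Abca8a, -0.012 for Slc6a13, 0.002 for Slc6a11, 0.121 for Kcnj2, 0.093 for Gpr37, 0.127 for Kcnj14, 0.552 for Lif and -0.098 for Rlbp1, and the cause was not tested. The score itself differs between the groups, and with it edgeR called 0 genes.

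The shared replicate numbers 1 to 3 were checked for pairing. Deviations of same-numbered libraries correlated by -0.07, -0.02 and 0.05 over genes, so the numbers were not taken to pair animals. With the replicate block, edgeR called 57 genes, against 0 with no replicate block on the same 6 libraries, and Dkk3 was at -0.022 with the block and -0.020 without it, Lif at 0.003 with the block, and Osmr at an adjusted p of 0.0107 with the block. The members had 341 (Sox9) to 43688 (Glul) counts per library, and the 95% intervals rest on 4 and 3 libraries.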
